A study of Mus musculus with 8 samples.

Results

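Peaks of open chromatin were examined at 10 mouse genes that encode transcription factors of haematopoietic stem cells, namely *Spi1*, *Gata2*, *Tal1*, *Lmo2*, *Lyl1*, *Ikzf1*, *Gfi1*, *Gfi1b*, *Myb* and *Meis1*. The genes were chosen by name, and all 10 were found in the GENCODE vM1 annotation of build mm9, *Spi1* under its older symbol Sfpi1, and *Gfi1* is typed there as a processed transcript. The background shares below are of 22367 annotated protein-coding genes on the chromosomes that held peaks, a set that holds the other genes but not *Gfi1*. Of 164103 peaks called over all libraries, 310 lay inside these genes or within 50 kb of them.

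Stromal cells came from the bone marrow of C57BL/6J mice at 6 weeks after birth, wild type in genotype. The labels give this strain name, and the study's methods give C57BL/6JJcl for purchased mice. ATAC-seq, in which the transposase Tn5 cuts accessible DNA, gave 7 libraries titled ATAC1 to ATAC7, and 1 Input library served as the control. The study's methods describe sorting of marrow cells that lacked the blood and endothelial surface proteins CD31, CD45 and TER119. The sorted cells also carried Sca-1 and PDGFR-α, and were divided further by other surface proteins. The labels do not tie a title to a sorted population, so the libraries are named by title. There was 1 library per title, so no difference between libraries has a replicate and none was tested.

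A haematopoietic stem cell renews itself and gives rise to all blood lineages. PU.1, GATA2, TAL1, LMO2 and LYL1 act together on shared enhancers, IKZF1, GFI1, GFI1B and MYB steer progenitors and lineages, and MEIS1 works as a partner of HOX proteins. Several of these genes have well known enhancers that lie far from the start site, named by their distance from it in kb. Some of the factors are also used outside the stem cell, in myeloid, lymphoid, erythroid, mast or endothelial cells.

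For every peak of a library, its own reads and the Input reads of the same region were at hand. The fold over Input is the authors' scaled ratio of those reads. The intervals given with folds are 95% Clopper-Pearson limits on the split of reads between library and Input, and they cover counting error only. Where no peak is given, none passed the threshold of the authors' caller, and the fewest reads of any called peak were 21 to 28 in a library. The lists held between 15188 peaks in ATAC7 and 32280 peaks in ATAC2.

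Sequences of 6 regions that carry the results are given here from the mm9 genome, each as the best-ranked peak of its region. They are the region downstream of *Tal1* (chr4:114768522-114768706), the region far upstream of *Lmo2* (chr2:103734058-103734153), the region downstream of *Gfi1b* (chr2:28457833-28457894), the region by the upstream *Spi1* start (chr2:90923206-90923310), the region past the end of *Ikzf1* (chr11:11688615-11688875) and the region just upstream of *Meis1* (chr11:18920511-18920584). All are printed on the plus strand, 5′ to 3′, and none overlaps an annotated UTR. Capitals mark matches, on either strand, to GATAA (GATA factors), TGTGGT (RUNX factors), TGACAG (MEIS-type factors) and CAGATG (an E-box). GAGGAA (ETS factors) and TGAGTCA (AP-1) were searched as well and were found in none.

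Tal1_downstream: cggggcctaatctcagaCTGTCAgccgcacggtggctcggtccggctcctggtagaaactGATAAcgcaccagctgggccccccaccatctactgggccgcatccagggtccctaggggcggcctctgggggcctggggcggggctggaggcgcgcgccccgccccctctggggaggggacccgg
Lmo2_upstream: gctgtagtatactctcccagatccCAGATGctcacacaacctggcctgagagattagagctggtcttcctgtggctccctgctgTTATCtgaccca
Gfi1b_downstream: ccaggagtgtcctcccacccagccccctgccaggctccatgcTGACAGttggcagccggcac
Spi1_start: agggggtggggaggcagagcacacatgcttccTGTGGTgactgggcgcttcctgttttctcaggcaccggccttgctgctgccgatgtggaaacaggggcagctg
Ikzf1_past_end: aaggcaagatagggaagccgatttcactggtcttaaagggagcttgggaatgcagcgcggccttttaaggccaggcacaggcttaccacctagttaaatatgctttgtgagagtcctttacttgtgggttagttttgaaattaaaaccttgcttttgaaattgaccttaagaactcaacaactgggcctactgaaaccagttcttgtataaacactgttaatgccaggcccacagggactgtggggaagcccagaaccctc
Meis1_upstream: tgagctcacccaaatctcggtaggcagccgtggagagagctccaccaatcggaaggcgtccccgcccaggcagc

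The *Tal1* peak held 1 GATAA and 1 TGACAG, letters that 12.97% and 13.7% of windows of the same length at all merged regions also held. The *Lmo2* peak held 1 GATAA, found in 7.42% of such windows, and 1 CAGATG, found in 6.88%. The *Gfi1b* peak held 1 TGACAG, present in 4.68% of windows, and the *Spi1* peak held 1 TGTGGT, present in 9.90%. A further scan was added after these results were seen, with shorter ETS letters and with wider windows. The letters AGGAA, tried because GAGGAA had matched nowhere, occurred 2 times in the *Spi1* peak and 1 time in the *Lmo2* peak, against 33.6% and 31.0% of windows of those lengths. AGGAA was absent from the *Tal1*, *Gfi1b*, *Ikzf1* and *Meis1* peaks. Over the 118 bases of the whole merged *Gfi1b* region, instead of the 62 bases of its best-ranked peak, GATAA occurred 2 times, and 8.84% of windows of that length held it. The wider windows scanned at *Tal1*, *Lmo2* and *Ikzf1* gave no further match. A match of letters is a description and not a binding site.

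At start sites, a peak was counted where its centre lay within 1000 bases of any annotated start of the gene. From ATAC1 to ATAC7, in order, such a peak was present for 7, 5, 7, 7, 9, 9 and 3 of the 10 genes. Among all protein-coding genes the shares were 49.0%, 50.2%, 43.5%, 43.7%, 52.7%, 51.5% and 42.0% in the same order. The 10 genes thus stood above the background share in ATAC1, ATAC3, ATAC4, ATAC5 and ATAC6, close to it in ATAC2 and below it in ATAC7. A peak at any annotated start counted, and the 10 genes have a median of 4 starts against 2 for protein-coding genes. The positions of ATAC2 and ATAC3 depended on the setting, and ATAC5 came close to the background with lists of equal length. With a fold of at least 5, ATAC3 kept 2 genes against a background of 28.8%, and ATAC2 kept 3 against 43.3%. With every list shortened to its first 15188 peaks, ATAC5 kept 5 genes against 45.6%, ATAC6 kept 7 against 45.9% and ATAC2 kept 1 against 41.5%.

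All 10 genes had a start-site peak in at least 1 library, against 56.7% of protein-coding genes, which have fewer annotated starts (median 2 against 4). *Spi1* and *Ikzf1* had one in all 7 libraries, and 36.8% of protein-coding genes did. This too depended on the setting. Only *Ikzf1* was left with a window of 500 bases, where the background was 35.4%, and only *Spi1* with a fold of at least 5, where it was 22.1%. With lists of equal length 0 of the 10 genes were left, against 34.3%. With a window of 2000 bases and a background of 37.9%, *Meis1* joined them, through peaks 1.642 kb and 1.626 kb from a start in ATAC1 and ATAC4. The start-site peaks of the 10 genes ranked low among start-site peaks, though 21 of 47 were in the upper part of their library's list, above its midpoint. In all 47 combinations of gene and library with such a peak, its rank was below the median of protein-coding genes in that library. The median reads in the peaks of the 10 genes ran from 58 in ATAC2 to 158 in ATAC1, and those of protein-coding genes from 227 in ATAC7 to 456 in ATAC6.

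**Figure D1:**
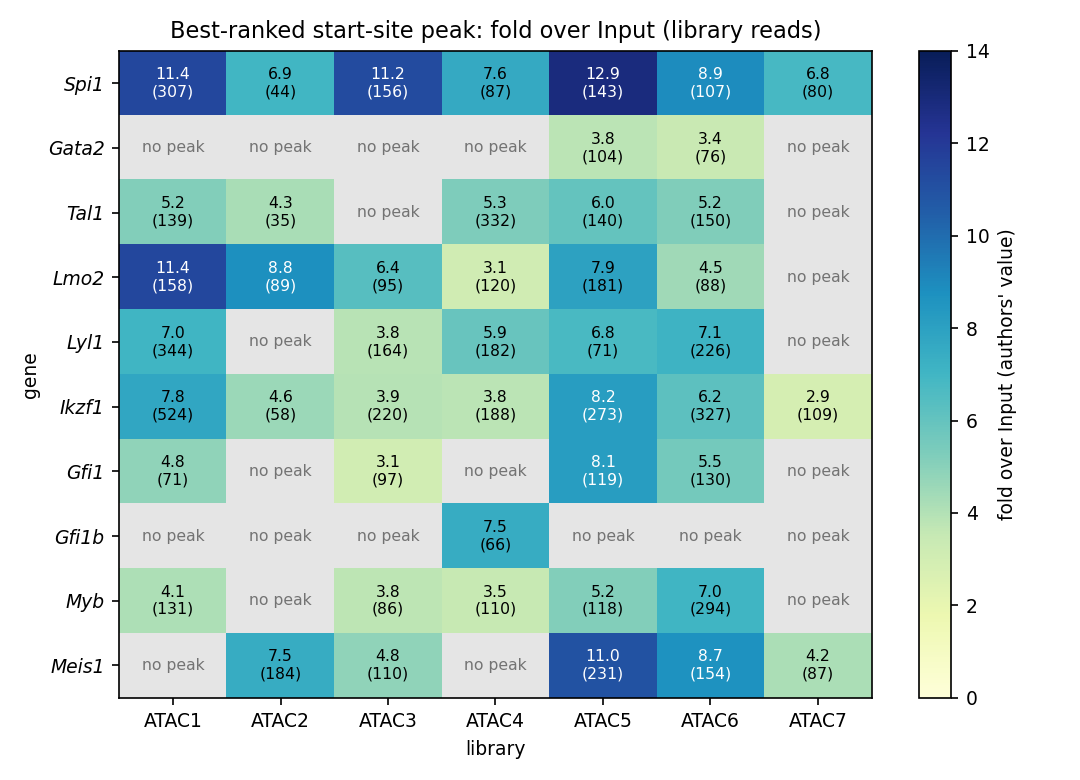
Fold over Input of the best-ranked start-site peak, by gene (rows) and library (columns), with the library's reads in parentheses and grey cells where no peak was called. *Spi1* and *Ikzf1* are filled in all 7 columns, *Gfi1b* in 1, and ATAC7 holds 3 peaks.

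*Spi1* encodes PU.1, an ETS factor of myeloid and B cells that is also needed in stem cells. From ATAC1 to ATAC7, its best start-site peak had 307, 44, 156, 87, 143, 107 and 80 reads. The fold over Input was highest in ATAC5, at 12.9 (7.96 to 22.0), and lowest in ATAC7, at 6.79 (3.76 to 13.3). Those counting intervals overlap, so the libraries cannot be ordered by the fold. In all 7 libraries this peak lay at the upstream annotated start, in the region printed above, and 6 libraries had a further peak near the downstream starts.

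The same region bears on the *Spi1* enhancer known as -14. Measured from the most upstream coding start, the window of 2 kb to either side of -14 kb holds a peak at another gene's start, in ATAC2, ATAC6 and ATAC7. Measured from the most downstream coding start, 14.39 kb further on, the region by the upstream start sits at -13.7 kb and has a peak in all 7 libraries. The choice of start was made after the values were seen. The upstream start and the enhancer window therefore cannot be told apart here.

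*Ikzf1* encodes Ikaros, a zinc finger factor of lymphoid development. In the order of the titles, its best start-site peak held 524, 58, 220, 188, 273, 327 and 109 reads. The fold was 7.75 (6.14 to 9.90) in ATAC1, 8.20 (6.15 to 11.1) in ATAC5 and 2.86 (1.99 to 4.19) in ATAC7. The median fold of all peaks also differed, at 7.89 in ATAC1, 10.9 in ATAC5 and 5.97 in ATAC7. Divided by these medians, the folds were 0.983 (0.778 to 1.25), 0.751 (0.563 to 1.02) and 0.480 (0.333 to 0.703), and the interval of ATAC7 overlapped that of ATAC5 but not that of ATAC1. ATAC1 had the most reads at the start of any of the 10 genes.

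*Tal1*, *Lmo2* and *Lyl1* encode members of one complex, in which the basic helix-loop-helix proteins TAL1 and LYL1 bind DNA and LMO2 bridges them to other factors. The *Tal1* start peak had 139 reads in ATAC1, 35 in ATAC2, 332 in ATAC4, 140 in ATAC5 and 150 in ATAC6, and none was called in ATAC3 and ATAC7. The *Lmo2* start peak had 158, 89, 95, 120, 181 and 88 reads from ATAC1 to ATAC6, and none was called in ATAC7. ATAC7 thus lacked a start peak for *Tal1* and *Lmo2*, and for *Lyl1* as well.

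The *Lyl1* start peak had 344 reads in ATAC1, 164 in ATAC3, 182 in ATAC4, 71 in ATAC5 and 226 in ATAC6. Its fold ran from 3.85 (2.74 to 5.52) in ATAC3 to 7.12 (5.22 to 9.87) in ATAC6. For *Tal1* the folds ran from 4.25 (2.196 to 8.76) in ATAC2 to 5.99 (4.19 to 8.75) in ATAC5. Those of *Lmo2* ran from 3.09 (2.17 to 4.47) in ATAC4 to 11.4 (6.91 to 20.1) in ATAC1, and the best peak lay at different starts of the gene in those libraries.

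*Gata2*, a zinc finger factor needed for stem cell survival, had a start-site peak in fewer libraries than *Tal1*, *Lmo2* and *Lyl1*. Its start-site peak was called in ATAC5, with 104 reads against 47 of Input, and in ATAC6, with 76 against 35. The folds were 3.79 (2.66 to 5.47) and 3.42 (2.26 to 5.26). In the other libraries the nearest peak of any kind was 85.7 kb to 109 kb away.

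*Gfi1* and *Gfi1b* encode related repressors, the former used in myeloid and lymphoid cells and the latter in erythroid cells and megakaryocytes. The *Gfi1* start peak held 71 reads in ATAC1, 97 in ATAC3, 119 in ATAC5 and 130 in ATAC6. The *Gfi1b* start peak was called in ATAC4 alone, with 66 reads against 10 of Input and a fold of 7.47 (3.82 to 16.3). No library had a start peak for both genes.

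*Myb*, which drives the growth of progenitors, had start peaks of 131 reads in ATAC1, 86 in ATAC3, 110 in ATAC4, 118 in ATAC5 and 294 in ATAC6. These are the same libraries as for *Lyl1*. *Meis1*, a homeobox gene also expressed in many non-blood tissues, had 184 reads in ATAC2, 110 in ATAC3, 231 in ATAC5, 154 in ATAC6 and 87 in ATAC7. Besides *Spi1* and *Ikzf1*, it was the only one of the 10 with a start peak in ATAC7, and it lacked one within 1000 bases in ATAC1 and ATAC4.

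**Figure D2:**
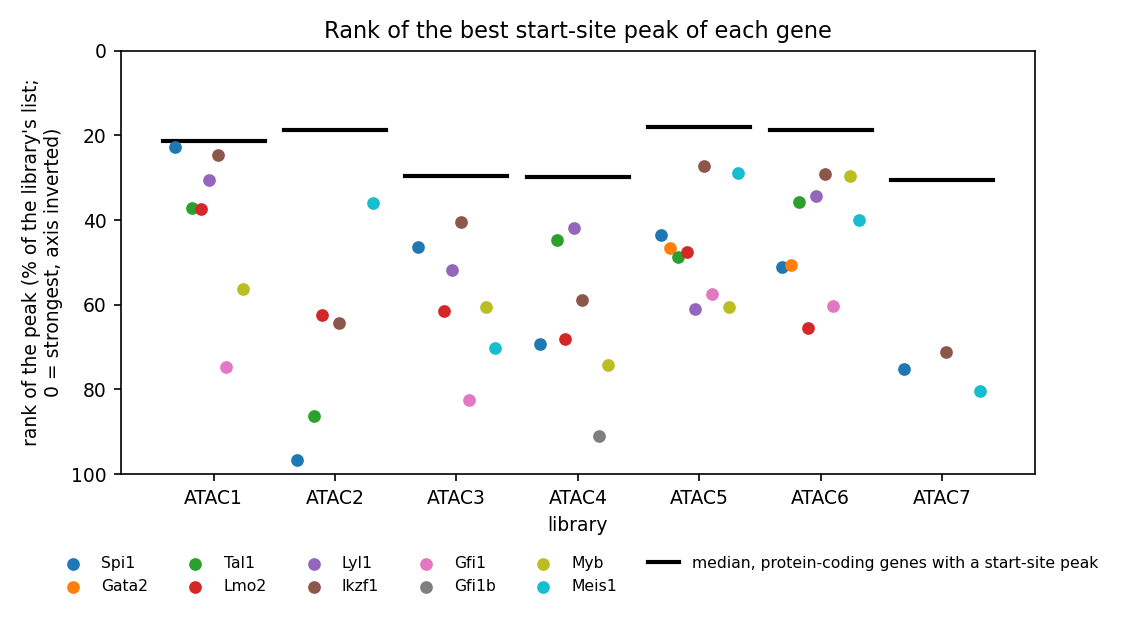
Rank of each gene's best start-site peak as a percent of the library's list, with the strongest peaks at the top of the inverted axis. Each point is 1 gene in 1 library, black bars are the medians of protein-coding genes with a start-site peak, and all 47 points lie below the bars.

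The base content of start sites was read from 500 bases to either side of each annotated start, taking the start with the highest ratio of observed to expected CpG. The ratio was above the protein-coding median of 0.602 for 7 of the 10 genes. *Ikzf1* had the highest, at 0.977, and *Gfi1b*, *Spi1* and *Lyl1* were below the median, at 0.320, 0.341 and 0.396. *Spi1* therefore had peaks in all 7 libraries at starts poor in CpG, and *Gata2*, at 0.767, had peaks in 2.

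Away from start sites, a peak was counted as distal where no annotated start of any gene lay within 1000 bases of its centre. Of the 310 peaks near the 10 genes, 78 were at their own starts, 103 at starts of other genes and 129 distal. The distal share was 41.6%, and that of all peaks was 42.9%. A distal peak in or within 50 kb was found for 8, 6, 5, 5, 7, 8 and 3 of the 10 genes from ATAC1 to ATAC7. The protein-coding shares were 43.7%, 51.2%, 24.7%, 25.1%, 53.6%, 51.1% and 24.4% in that order. The share of the 10 genes was above the background in each library, by less than 1 gene in ATAC2 and ATAC7.

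**Figure D3:**
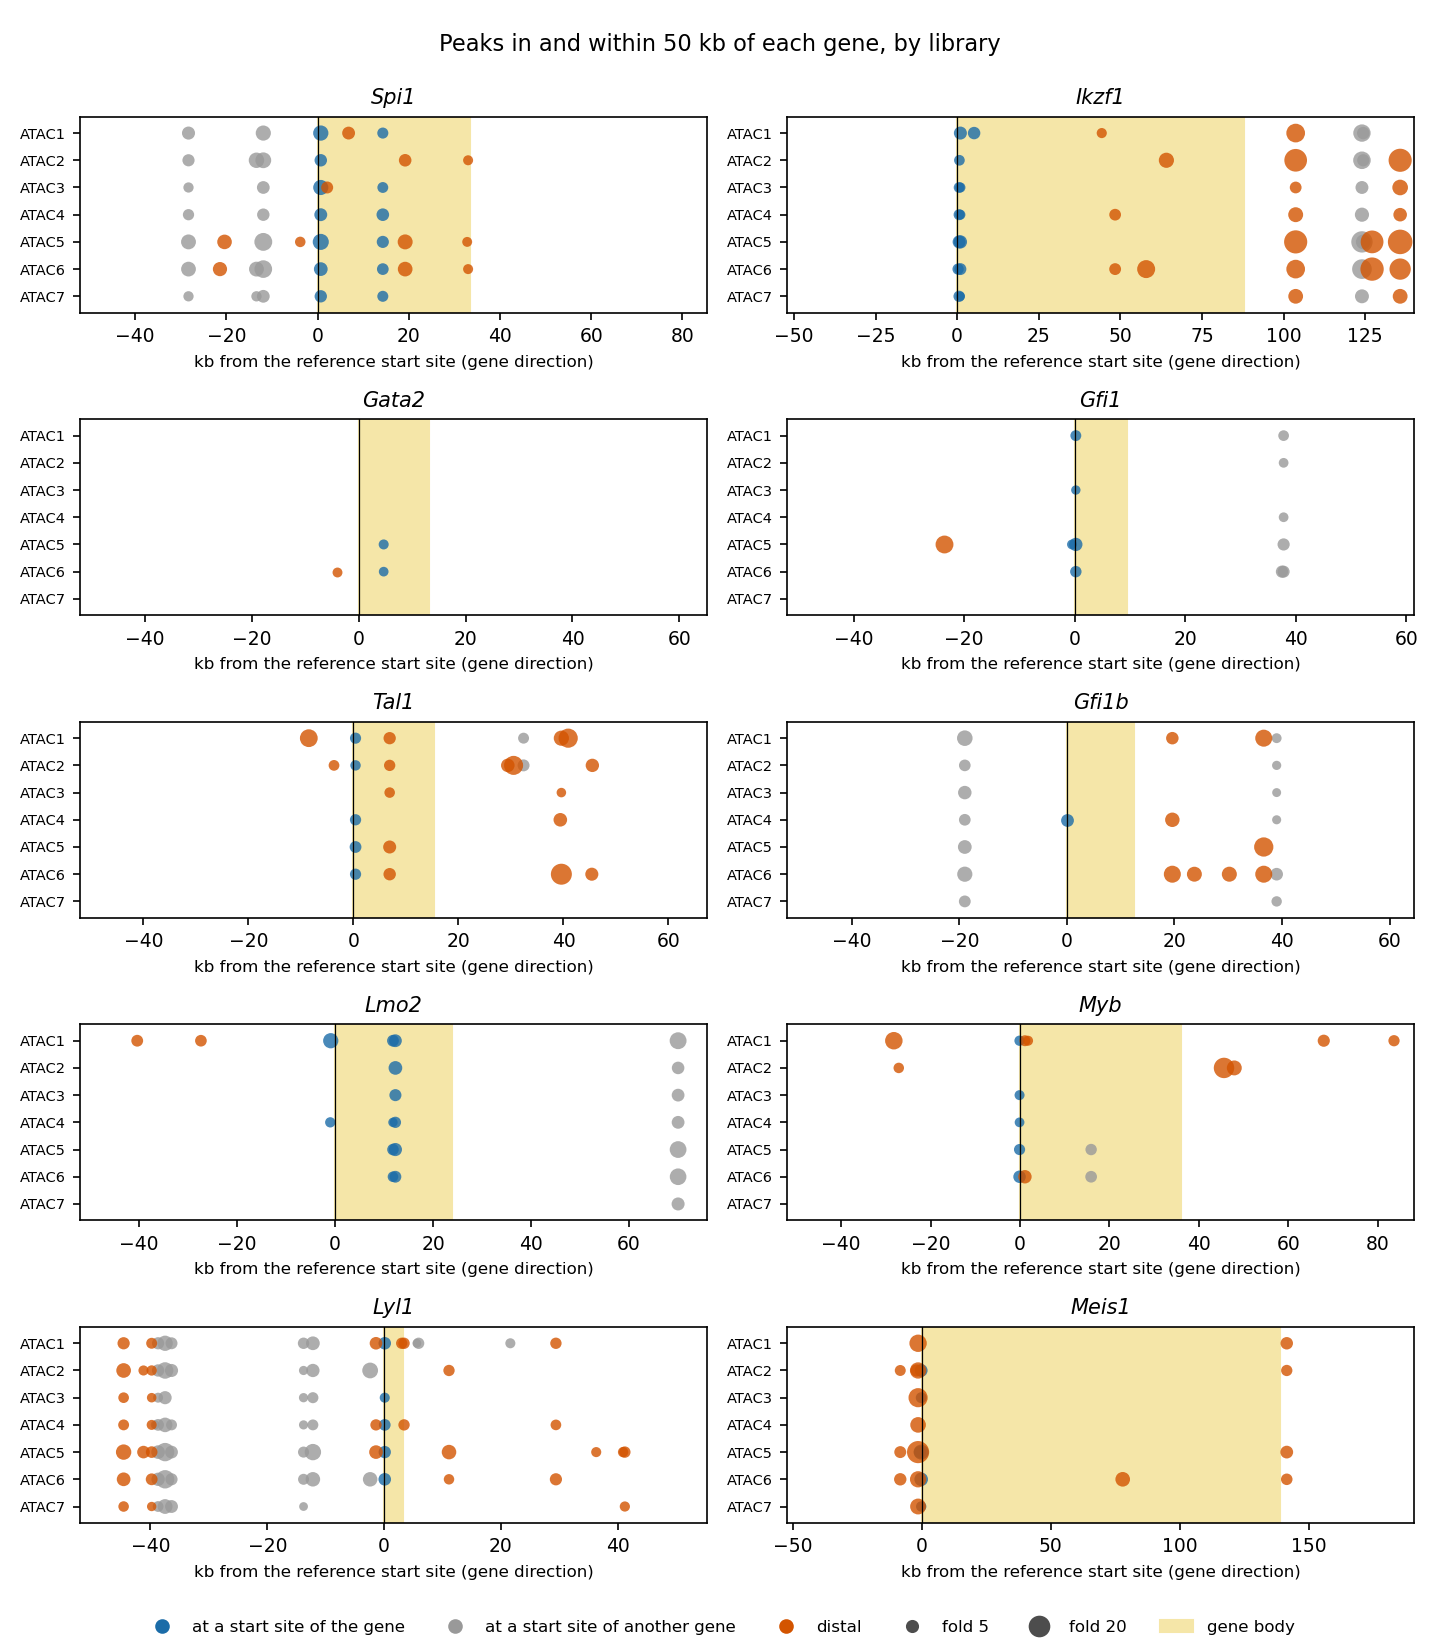
Peaks in and within 50 kb of each gene, placed by distance in kb from its reference start in the direction of the gene, with 1 row per library. Colour gives the class of peak, point area grows with fold over Input and shading marks the gene body. *Gata2* has 3 peaks in all and *Lyl1*, in a gene-dense stretch, has 81.

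Merging overlapping peaks of the 7 libraries gave 99 regions. All 7 libraries shared 13 of them, or 13.1%, against 16.6% of all merged regions, and 48, or 48.5%, were called in 1 library, against 40.9%. At the genes' own starts, 1 of 20 regions was shared by all 7 libraries, against 35.4% of start-site regions of the whole series. The *Ikzf1* start, which had a peak in all 7 libraries, was split into adjacent regions, none of them shared by all 7. Of 57 distal regions, 35 were called in 1 library, or 61.4%, against 50.1% of distal regions in the series. When peaks within 500 bases were joined, 31 of 79 regions were in 1 library, or 39.2%, against 31.9% of all regions. With lists of equal length it was 21 of 53, or 39.6%, against 32.4%.

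Distal regions shared by all 7 libraries numbered 4, or 7.02% of the distal regions, against 3.91% in the series. The strongest by rank was the one past the end of *Ikzf1*, 15.8 kb beyond the gene in a noncoding exon of *Fignl1*. It had 266, 402, 131, 134, 388, 253 and 134 reads from ATAC1 to ATAC7. The fold was 28.9 (18.98 to 46.1) in ATAC5 and 27.6 (18.1 to 44.1) in ATAC2, and 6.01 (3.81 to 9.92) in ATAC3. Divided by the median fold of each library these were 2.64, 2.98 and 1.04. ATAC2, which had only 58 reads at the *Ikzf1* start, was among the highest here.

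The region at -1.4 kb of *Meis1* was called in all 7 libraries, including ATAC1 and ATAC4, where the start itself had no peak. Its best peak had 163, 245, 76, 64, 338, 252 and 170 reads from ATAC1 to ATAC7. The fold of that peak was between 12.1 (5.26 to 34.1) in ATAC4 and 26.3 (17.1 to 42.6) in ATAC5, and the intervals overlap. The other shared regions lay at -39.8 kb and -44.6 kb of *Lyl1*, where the nearest annotated start is that of *Ier2*.

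Further distal regions were called in fewer libraries. An intron of *Ddc*, 47.8 kb past *Ikzf1*, had a region in 6 libraries, all but ATAC1. A coding exon of *Tal1*, at 6.9 kb, had one in 5 libraries with 48 to 93 reads. Distal regions called in exactly ATAC2, ATAC5 and ATAC6 numbered 3, or 5.26% of the distal regions, below the 8.92% in the series. They lay in an intron of *Spi1*, with 36 to 53 reads, at -8.3 kb of *Meis1*, with 62 to 97 reads, and 11.1 kb downstream of the *Lyl1* start in an intron of *Nfix*, with 63 to 143 reads. These 3 libraries also have the 3 longest peak lists.

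Known enhancers were searched as 19 windows of 2 kb to either side of the usual distance, and 6 windows, or 31.6%, held a peak when distances were taken from the most upstream coding start. Around protein-coding genes in general, windows at these distances held one in 12.7% of genes on average, from 9.93% to 46.3% by distance. Some windows of one gene overlap and share a peak. The *Tal1* +40 enhancer, active in erythroid cells, gave the strongest values. The region held 388 reads in ATAC1, 87 in ATAC3, 290 in ATAC4 and 639 in ATAC6, and no peak was called in ATAC2, ATAC5 and ATAC7. The ATAC4 peak lay just beside the others without overlapping them. The folds were 23.4 (17.2 to 32.7) in ATAC6, 11.3 (8.24 to 16.0004) in ATAC1, 8.64 (6.15 to 12.5) in ATAC4 and 3.25 (2.09 to 5.21) in ATAC3. The median fold of all peaks was 10.1 in ATAC6, 7.89 in ATAC1, 6.13 in ATAC4 and 5.77 in ATAC3. Divided by these medians, the folds were 2.31 (1.70 to 3.23), 1.44 (1.04 to 2.03), 1.41 (1.00379 to 2.03) and 0.563 (0.362 to 0.903). The intervals of ATAC6, ATAC1 and ATAC4 overlapped each other and not that of ATAC3, which speaks of counting error in these libraries and not of a difference between populations. The *Tal1* +19 window, used in stem cells, had no peak in any library.

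The *Lmo2* -75 enhancer was found only with distances taken from its downstream starts, a choice made after the values were seen. There, at -76.3 kb, the region had 186 reads in ATAC1 and 54 in ATAC6, and a peak beside it had 146 reads in ATAC4. A further peak at -75 kb was called in ATAC1 alone, with 73 reads against 4 of Input and a fold of 22.4 (8.39 to 84.5). At -76.3 kb and beside it the folds were 13.4 (8.17 to 23.6) in ATAC1, 12.1 (5.51 to 31.6) in ATAC6 and 10.3 (6.15 to 18.6) in ATAC4, with overlapping counting intervals. The other libraries had no peak there. From the same downstream starts, the *Lmo2* -12 window holds the peaks by the upstream start, with 158 reads in ATAC1 and 51 in ATAC4, so that start and that enhancer cannot be told apart. The -25 window had no peak from any start. With any annotated start allowed as reference, 12 of the 19 windows held a peak, or 63.2%. Windows at the same distances from any start of protein-coding genes held one in 20.1% of genes on average, from 15.8% to 54.7% by distance. The 10 genes have a median of 4 annotated starts and protein-coding genes 2, so they had more tries.

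*Gfi1b* had no peak in its +13, +16 and +17 windows measured from the reference start. Measured from an annotated noncoding start 6.577 kb inside the gene, the +13 window held a region in 3 libraries, and the +16 and +17 windows shared a region in ATAC6. The first, 7.1 kb past the end of the gene, had 57 reads in ATAC1, 80 in ATAC4 and 56 in ATAC6. These are the libraries that had the *Lmo2* region, and they have the 3 highest folds for *Tal1* +40. How many regions of the series were called in exactly these libraries was not counted. The second, at 23.7 kb of the reference start, was called in ATAC6 alone, with 214 reads and a fold of 10.9 (7.43 to 16.4).

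The remaining windows held little. The *Gata2* -4 and -3 windows share 1 peak, in ATAC6, with 135 reads against 58 of Input, and its -77, -2 and +9.5 windows had none from the upstream start. From the downstream start, the -2 window holds the start-site peak of ATAC5 and ATAC6 given above. *Tal1* -4 had 56 reads in ATAC2. *Myb* -68 had 45 reads in ATAC6, and its -36 and -81 windows had no peak. The *Gfi1* -35 window had none.

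**Figure D4:**
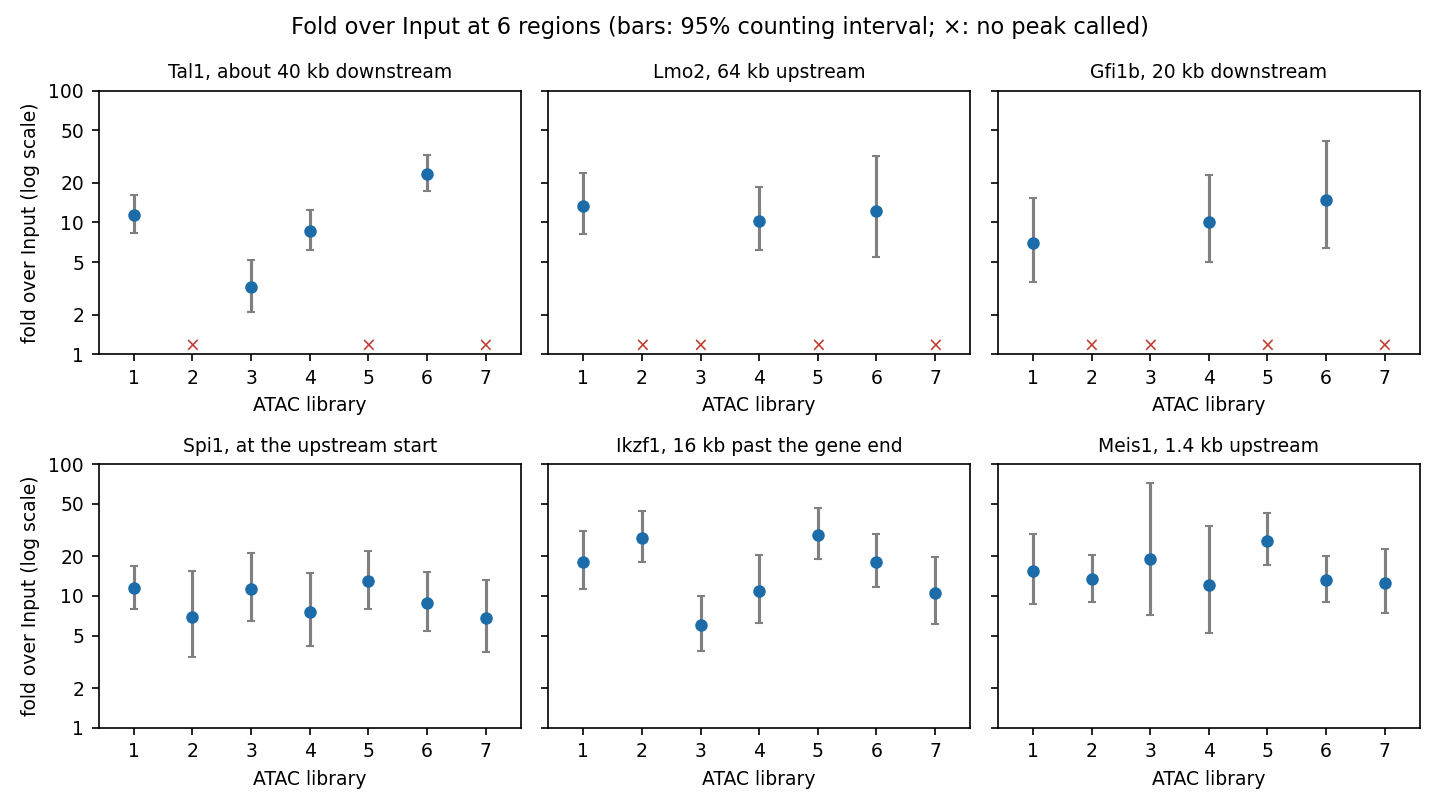
Fold over Input, on a log axis, at the 6 regions whose sequences are printed, by library, with the better-ranked peak where a library had more than 1. Bars are 95% counting intervals and crosses mark libraries with no peak, which include ATAC2, ATAC5 and ATAC7 in the *Tal1*, *Lmo2* and *Gfi1b* panels and are missing from the lower row.

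Markers of other cell types were counted at start sites in the same way. Of 12 markers of blood cells, 10, 3, 10, 4, 9, 4 and 2 had a peak from ATAC1 to ATAC7, and *Cd48* and *Was* had none anywhere. *Ptprc*, which encodes the CD45 used in the sort, had a start peak in 4 libraries, ATAC1, ATAC3, ATAC5 and ATAC7. Summed reads over the list were 1308, 192, 860, 345, 751, 415 and 116 from ATAC1 to ATAC7. Those of the 10 stem cell factors were 1674, 410, 928, 1085, 1380, 1552 and 276. Multiplied by the scale factor that the fold uses, the sums of the factors were 2057, 648, 936, 1229, 2364, 2444 and 305, and those of the blood markers 1607, 303, 868, 391, 1286, 653 and 128. On that scale the factors were highest in ATAC6 and the blood markers in ATAC1, and both were lowest in ATAC7.

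Of 10 erythroid markers, 8, 3, 1, 7, 2, 5 and 1 had a start peak in the same order. Summed erythroid reads were 1303 in ATAC1, 1164 in ATAC4 and 467 in ATAC6, and 55 to 145 in the other libraries. The globin gene *Hbb-b1* and the band 3 gene *Slc4a1* had start peaks in ATAC1, ATAC4 and ATAC6 alone, and *Hba-a1* and *Alas2* had none anywhere. ATAC1, ATAC4 and ATAC6 are the libraries with the *Lmo2* and *Gfi1b* distal regions and the highest *Tal1* +40 values. Regions called in exactly these libraries were not counted over the series. The *Lmo2* and *Gfi1b* regions fall in enhancer windows only from starts chosen after the values were seen. The part of erythroid cells in the *Tal1*, *Lmo2* and *Gfi1b* values was not tested.

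Of 12 stromal markers, 4, 8, 2, 2, 8, 7 and 6 had a start peak from ATAC1 to ATAC7. *Pdgfra*, which encodes the PDGFR-α used in the sort, had one in 5 libraries, ATAC2, ATAC4, ATAC5, ATAC6 and ATAC7. *Prrx1*, *Dcn* and *Thy1* had none in any library. Of 12 endothelial markers, 4 had one in ATAC5, 1 in ATAC2, 1 in ATAC6 and 0 in the others, and 8 of them, with *Cdh5*, had none in any library. The share of each cell type in a library and the accessibility per cell cannot be told apart. Of 20 other blood stem and progenitor factors, 10 to 15 had a start peak in a library, and *Hhex*, *Gata1* and *Cebpe* had none anywhere.

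**Figure D5:**
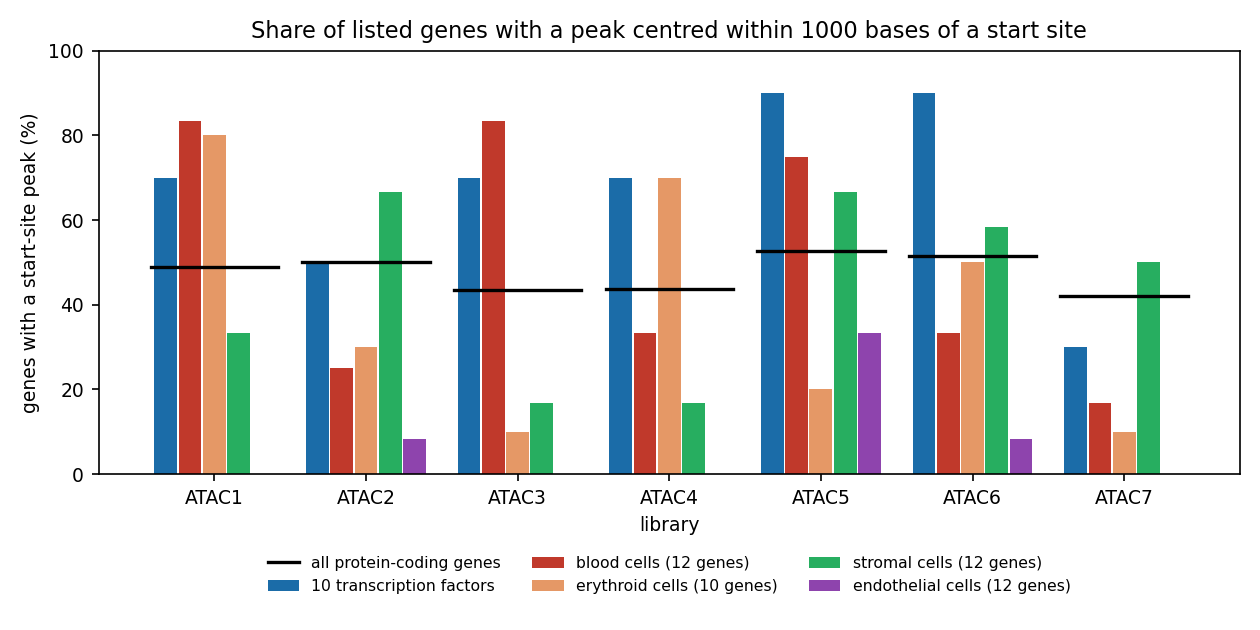
Percent of genes with a start-site peak in each library, for the 10 transcription factors and 4 lists of cell type markers, with black bars for all protein-coding genes. The erythroid list stands at 80% in ATAC1, 70% in ATAC4 and 50% in ATAC6, and at 10% to 30% in the other libraries.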

How the data were processed

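ATAC-seq peaks of 7 libraries were analysed against 1 Input library. The authors used Bowtie for alignment to mm9. Each library was then set against Input in CisGenome, at a p-value limit of 1e-05 and an FDR below 0.01. Transposase shifts and duplicate removal are not given in the sources used here. Per peak, the deposited values are counts of reads, for the library and for Input. The deposited fold is a scaled ratio of those counts, with 0.01 added to Input. The ranking statistic and the window value are signal columns made by the authors' caller, and only the rank was used. The second kind of deposited peak list was not used here.

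Peaks were placed on GENCODE vM1, and overlapping peaks (at least 1 base) were merged across libraries. The named items were all 10 genes, their best-ranked start-site peak per library, up to 3 distal regions each by number of libraries, and regions in windows at known enhancer distances, which come from general knowledge. All 76 list genes were matched, 2 by an older symbol. The members and lists were chosen with earlier results of these data known. No test was made, since each title had 1 library. Reads per peak are the only depth in the tables, and reads of PCR copies are not independent. Python 3.11.15, pandas 2.3.3, numpy 2.4.6 and scipy 1.17.1 were used, and the scripts were tested on simulated data.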

Additional observations from a re-analysis of the deposited data

How the results depend on the processing

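Of the recomputed summary counts, 65 stayed within 1.5 times the value reported and 16 did not. Of the recomputed counts per library of peaks and distal peaks near the genes, 45 stayed within that factor and 25 did not. Genes with a start-site peak in all 7 libraries numbered 1 with a window of 500 bases, 1 with a fold of at least 5 and 0 with equal peak numbers, against 35.4%, 22.1% and 34.3% of protein-coding genes, a count added after the data were seen. A distance of 25 kb gave 200 peaks, 79 of them distal. A fold of at least 5 left start-site peaks for 3 genes in ATAC2 and 2 in ATAC3, and 8 regions in all 7 libraries. An equal number of 15188 peaks per library gave start-site peaks for 1 gene in ATAC2 and 5 in ATAC5, 192 peaks, 60 of them distal, and 53 regions, 21 of them in 1 library. Joining peaks within 500 bases left 31 regions in 1 library. Enhancer distances from any annotated start, added after the data were seen, gave 12 windows with a peak, and windows of 1 kb and 3 kb were added too, as were folds divided by the library's median fold and list sums multiplied by the scale factor. The second search of letters (AGGAA, and whole merged regions) was also chosen after the first was seen, and its matches are given apart from those of the first. No paired analysis was possible because no title has a second library. The fewest reads of any called peak were 21 to 28 in a library, and a call also depended on the Input reads. Both limit every statement on a missing peak.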
